A study of Mus musculus with 2 samples.

Results

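The genes described here encode the proteins with which a cell senses bacterial lipopolysaccharide (LPS) through toll-like receptor 4 (TLR4), and close relatives in the same pathway. They were chosen by symbol, 10 of the 32285 genes listed: Lbp, Cd14, Ly96, Tlr4, Tlr2, Myd88, Ticam1, Ticam2, Irak4 and Irak3. Mouse eyes of both groups had received LPS in the vitreous, at 0.5 µg per eye, and their retinas were dissociated for single-cell RNA sequencing with 3′ tags, in which each captured RNA molecule is counted once by its unique molecular identifier (UMI). The knockout mice carried GLAST-CreER and Atg5fl/fl and had been given 4-hydroxy-tamoxifen. The control mice carried Atg5fl/fl, with neither Cre nor tamoxifen in their labels, so genotype, Cre and drug cannot be told apart. GLAST is the glutamate transporter of glia, and its promoter drives the inducible Cre in Müller glia, the radial glia of the retina. Atg5 is needed to build autophagosomes. Each group was 1 library from 6 pooled retinas, so no difference between the libraries has a replicate check and no test was possible. No uninjected eye was analysed here, and the labels give no sex, age or delay from injection to harvest.

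LPS-binding protein, encoded by Lbp, is an acute-phase protein that lifts LPS out of bacterial membranes and hands it to CD14. CD14 passes it on to MD-2, the product of Ly96, which sits on the outer part of TLR4 and lets the receptor pair up. TLR4 then signals at the cell surface through MyD88 and the kinase IRAK4 to NF-κB, and from endosomes through TRAM (Ticam2) and TRIF (Ticam1) to interferon regulatory factors. IRAK-M, the product of Irak3, restrains the MyD88 branch and is known from myeloid cells. TLR2 senses bacterial lipoproteins, also through MyD88.

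Promoter windows from 250 bases before to 50 bases after the annotated start (RefSeq, GRCm38.p6) were matched for 5 members by symbol, namely Tlr2, Myd88, Irak3, Irak4 and Ticam1. The windows of Tlr2 and Myd88 are shown because Müller glia-like cells, the cells in which Cre is driven, carried these genes at the clearest levels, as described further on. Capitals mark a match to a motif, a κB-type one in Tlr2 (GGG, any 3 bases, then TTCC) and an interferon-response-type one in Myd88 (GAAA, any 2 bases, then GAAA). Each window is printed on the strand of its gene, the minus strand in both cases, and lies at chr3:83841559-83841858 for Tlr2 and at chr9:119339969-119340268 for Myd88.
Tlr2: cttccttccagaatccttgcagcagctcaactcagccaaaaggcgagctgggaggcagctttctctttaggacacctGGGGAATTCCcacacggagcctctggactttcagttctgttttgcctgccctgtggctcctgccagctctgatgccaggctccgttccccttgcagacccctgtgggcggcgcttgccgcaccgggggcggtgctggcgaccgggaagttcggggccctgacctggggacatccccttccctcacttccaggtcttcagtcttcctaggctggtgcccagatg
Myd88: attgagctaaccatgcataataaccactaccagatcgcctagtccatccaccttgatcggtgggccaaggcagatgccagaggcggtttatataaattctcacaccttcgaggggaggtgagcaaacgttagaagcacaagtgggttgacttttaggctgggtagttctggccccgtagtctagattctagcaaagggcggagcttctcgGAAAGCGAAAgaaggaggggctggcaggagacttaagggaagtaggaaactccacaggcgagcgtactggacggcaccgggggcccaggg
The Tlr2 match started at base 78 of its window and the Myd88 match at base 211, counted from the 5′ end. Searched on both strands, 5.56% of the 32851 windows of the table held the κB-type motif and 3.44% the interferon-response-type motif. Neither run of letters was found in the windows of Irak3, Irak4 and Ticam1. A match is a description of the sequence and not a binding site.

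In mm10, with gene models of GENCODE M21, Lbp lies at chr2:158306493-158332852, Ly96 at chr1:16688051-16709611, Tlr4 at chr4:66827584-66930284 and Irak4 at chr15:94543643-94581815, all on the plus strand. On the minus strand lie Cd14 at chr18:36725067-36726798, Tlr2 at chr3:83836272-83841767, Myd88 at chr9:119335934-119341411, Ticam1 at chr17:56269319-56276786, Ticam2 at chr18:46557291-46574533 and Irak3 at chr10:120141648-120202130. Ticam2 overlaps Tmed7 and Myd88 overlaps Slc22a14 on the same strand, so their counts are uncertain by whatever UMIs fell in the shared stretches.

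After filtering, 4662 knockout and 8274 control cells remained, with medians of 6808 and 1396 UMIs per cell. The libraries differed in cell mix, with 323 knockout and 2796 control rod-like cells. Cell classes were rebuilt from marker genes. The classes that matter here were neutrophil-like (164 knockout and 225 control cells), monocyte and macrophage-like (51 and 94), endothelial-like (50 and 55) and Müller glia-like cells (562 and 361), beside rod-, cone-, bipolar-, amacrine-, horizontal- and ganglion cell-like neurons. The neutrophil calprotectin genes S100a8 and S100a9 together stood at 145609 counts per class total scaled to 1e6 UMIs (CPM) in knockout and 107964 CPM in control neutrophil-like cells, and 12 Müller glia markers summed to 11722 CPM in knockout and 15629 CPM in control Müller glia-like cells. No cluster met the markers of microglia. Unnamed cells numbered 1442 in the knockout and 3415 in the control library. Of these, 620 and 2756 lay in a shallow cluster led by lens crystallin and rod genes. The libraries shared 15 cell barcodes. Atg5 stood at 17.9 CPM (95% interval 15.5 to 20.6) in knockout and 20.1 CPM (95% interval 16.4 to 24.2) in control Müller glia-like cells, but its 3′ tags lie outside the exon that the usual floxed allele loses, so this does not check the deletion.

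The receptor genes were myeloid first, in both libraries. Tlr4 reached 302 CPM (273 to 333) in knockout and 218 CPM (198 to 241) in control neutrophil-like cells, where 75.6% and 61.8% of cells had at least 1 UMI. All intervals are exact 95% intervals (Poisson for levels, binomial for shares, conditional binomial for ratios) and cover counting error only. Monocyte and macrophage-like cells followed with 54.5 CPM (41.9 to 69.8) in the knockout and 44.2 CPM (36.0 to 53.6) in the control library, and endothelial-like cells with 46.5 CPM (37.8 to 56.6) and 39.0 CPM (30.5 to 49.2). The intervals of these last classes overlapped in each library, so their order was not resolved. Among endothelial-like cells, 35 of 50 knockout cells and 27 of 55 control cells held a Tlr4 UMI.

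Müller glia-like cells had far less Tlr4, 7.38 CPM (5.87 to 9.16) in the knockout and 6.56 CPM (4.57 to 9.12) in the control library. Neutrophil-like cells exceeded them 40.9-fold (32.2 to 52.6) in the knockout and 33.3-fold (23.5 to 48.5) in the control library, and endothelial-like cells 6.30-fold (4.66 to 8.55) and 5.95-fold (3.91 to 9.19). The level in Müller glia-like cells was still above that of neurons, whose classes ranged from 0 to 2.58 CPM in the knockout and from 0 to 1.23 CPM in the control library. Their intervals met those of cone-, horizontal- and rod-like cells in the knockout and of cone-like cells in the control library, classes with at most 3 Tlr4 UMIs in that library. At least 1 Tlr4 UMI was seen in 51 of 562 knockout and 26 of 361 control Müller glia-like cells, at median depths of 20102 and 14032 UMIs. Ganglion cell-like neurons, which were deeper at 36020.0 and 30756 UMIs, had none in 80 knockout and 39 control cells, which allows shares of up to 3.75% and 7.69%, taken as 3 cells of the total rather than from a binomial interval. With every cell thinned to 1000 UMIs the shares in Müller glia-like cells were 0.730% and 0.896%, against at most 1.10% and 0.352% in a neuronal class, so at that depth a difference from neurons was not detectable in the knockout library. With free RNA, scaled by rod markers, taken away, 4.38 CPM in the knockout and 3.83 CPM in the control library remained. The profile taken away was that of all cells of the library, neutrophil-like cells included.

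**Figure D1:**
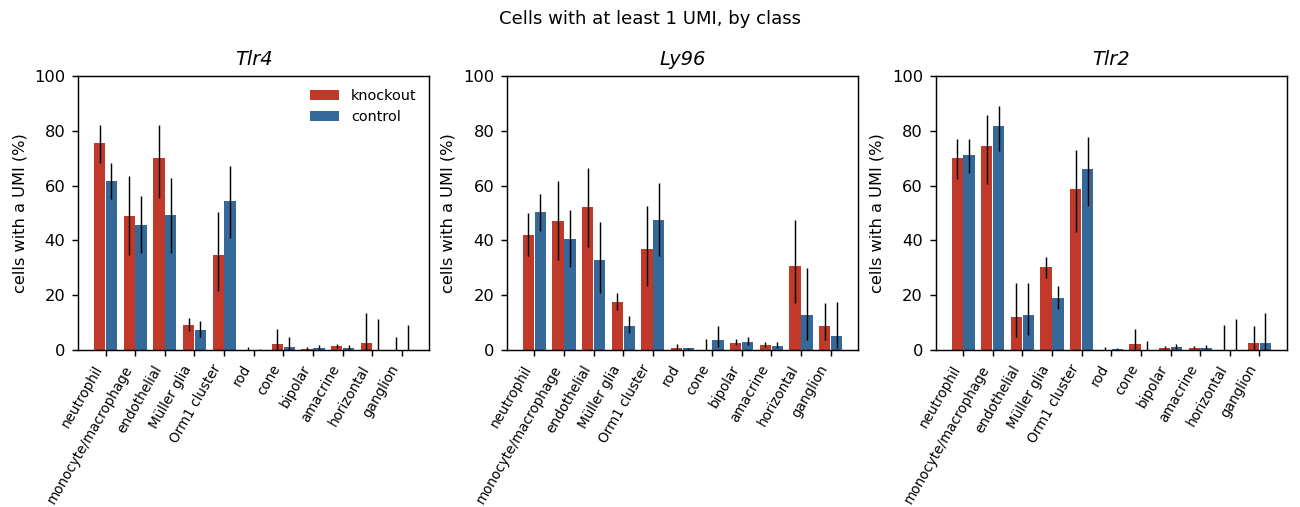
Share of cells with at least 1 UMI of Tlr4, Ly96 and Tlr2 (vertical axis, percent) by cell class, knockout left of control, with exact binomial 95% intervals. Neutrophil-like cells reached 75.6% in the knockout and 61.8% in the control library for Tlr4, and no ganglion cell-like neuron had a Tlr4 UMI; the classes differ in depth.

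Ly96, whose product lets TLR4 bind LPS, had its levels in the same order with smaller gaps, which were not all resolved. Endothelial-like cells overlapped monocyte and macrophage-like cells in the knockout library and Müller glia-like cells in the control library. The direct Ly96 ratio of endothelial-like to Müller glia-like cells was 2.41 (1.72 to 3.35) in the knockout and 1.64 (0.942 to 2.81) in the control library. Neutrophil-like cells held 89.6 CPM (74.1 to 107) in the knockout and 128 CPM (113 to 146) in the control library, monocyte and macrophage-like cells 31.2 CPM (21.8 to 43.1) and 30.2 CPM (23.5 to 38.2), and endothelial-like cells 25.8 CPM (19.5 to 33.6) and 12.6 CPM (8.01 to 19.0). In Müller glia-like cells it stood at 10.7 CPM (8.87 to 12.8) in the knockout and 7.68 CPM (5.51 to 10.4) in the control library. Horizontal cell-like neurons overlapped them in both libraries, at 10.6 CPM (5.80 to 17.8) in the knockout and 3.87 CPM (1.05 to 9.91) in the control library, as did knockout rod-like and control cone-, rod- and ganglion cell-like cells, so the glial Ly96 level did not stand clear of every neuronal class.

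Cd14 was concentrated in myeloid cells. It stood at 4669.5 CPM (4553 to 4788) in knockout and 3491 CPM (3407 to 3577) in control neutrophil-like cells, and at 1580.4 CPM (1509 to 1655) and 1155 CPM (1112 to 1200.3) in knockout and control monocyte and macrophage-like cells. Neutrophil-like cells alone carried 67.2% of the Cd14 UMIs of the knockout library and 61.4% of those of the control library, from 3.52% and 2.72% of the cells. Droplets take up RNA from the suspension, so the low Cd14 levels of other classes were set against the neutrophil RNA found in them.

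The measure was the number of Cd14 UMIs per 100 UMIs of S100a8 and S100a9. Neutrophil-like cells held 3.21 in the knockout and 3.23 in the control library. Control rod-like cells had the same ratio, 3.23 (2.57 to 4.02), at 23.8 CPM of Cd14. Knockout rod-like cells, with 4 Cd14 UMIs, had 1.69 (0.458 to 4.40), an interval that also held the neutrophil ratio. Bipolar-like cells were somewhat above it, at 5.42 (3.85 to 7.42) and 5.40 (3.64 to 7.75), and the intervals of amacrine-like cells, 4.83 (3.47 to 6.56) and 4.05 (2.60 to 6.04), left it out in the knockout library only. Knockout horizontal cell-like neurons stood apart at 16.6 (11.0 to 24.3), with all 31 of their Cd14 UMIs in 5 cells. Control endothelial-like cells were near the neutrophil ratio at 4.24 (3.60 to 4.97), whereas knockout endothelial-like cells had 62.3 (45.6 to 84.5). In endothelial-like cells 10 neutrophil markers summed to 90.6 CPM in the knockout and 2223 CPM in the control library.

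**Figure D2:**
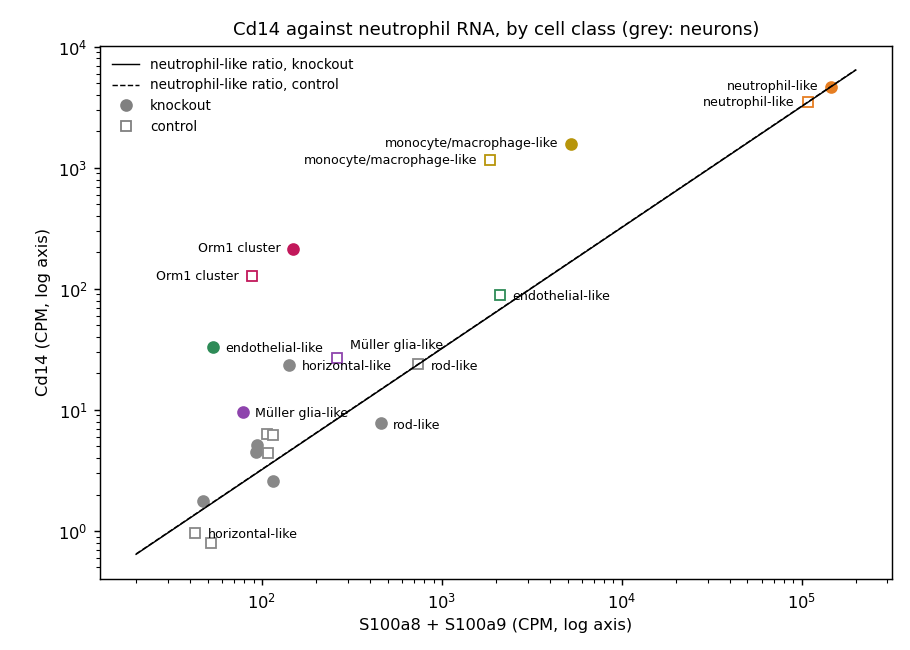
Cd14 level (vertical axis, CPM, log scale) against the summed level of S100a8 and S100a9 (horizontal axis, CPM, log scale) in each cell class, circles for knockout and open squares for control; the lines carry the neutrophil-like ratios of 3.21 and 3.23 Cd14 UMIs per 100 UMIs of those genes and nearly coincide. Monocyte and macrophage-like cells and the unnamed Orm1 cluster lie far above the lines, and control rod-like cells lie on them.

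Müller glia-like cells had 9.63 CPM (7.89 to 11.6) of Cd14 in the knockout and 27.0 CPM (22.8 to 31.8) in the control library. Per 100 calprotectin UMIs these were 12.3 and 10.3, above the neutrophil ratio in both libraries. The excess was uneven within the class, which was split into 5 subclusters numbered from 0 by size. Subcluster 0 was led by genes such as Flnc, Mmp3 and Lif and held 60.9% of the knockout and 13.0% of the control class. Its Cd14 level was 2.69 CPM in the knockout and 1.92 CPM in the control library, and its intervals per 100 calprotectin UMIs, 1.85 to 4.88 and 0.471 to 15.2, held the neutrophil ratio. Subcluster 1 was led by Fabp5 and haemoglobin genes, of which Hba-a1 stood at 521 CPM in the knockout and 0.912 CPM in the control library. It held 23.3% and 21.1% of the class and most of its Cd14, 83 of 107 knockout and 122 of 144 control UMIs. Per 100 calprotectin UMIs that was 45.4 (34.6 to 59.1) and 25.3 (20.5 to 30.9). Of the UMIs of Pax2, a marker of retinal astrocytes, in the class, all 37 knockout and 7 of 8 control ones lay in it. Aldh1l1, also on the astrocyte list, was lower there than in subcluster 0 (17.8 against 40.2 CPM, knockout, and 33.3 against 61.4 CPM, control). Whether it held astrocytes was not tested. A single control cell of the class held 88 Cd14 UMIs, and the 5 cells with the most held 39.3% of the knockout and 75.7% of the control UMIs. Beside these values, 12 monocyte and macrophage markers summed to 9.89 CPM in knockout and 31.1 CPM in control Müller glia-like cells, and 10 neutrophil markers to 83.8 CPM and 285 CPM. Their part in the Cd14 values was not tested. With free RNA, scaled by rod markers, taken away, no Cd14 remained in the class in either library. The profile taken away was again that of the whole library, neutrophil-like cells included, at 28.4% of knockout and 20.5% of control UMIs. This subtraction therefore cannot tell Cd14 of the class from that of neutrophil-like cells. By S100a8 and S100a9, neutrophil RNA was put at 0.0539% of knockout and 0.243% of control UMIs of the class.

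Tlr2 was the receptor gene with the clearest glial level. Neutrophil-like cells held 238 CPM (213 to 266) in the knockout and 216 CPM (196 to 238) in the control library, and monocyte and macrophage-like cells 164 CPM (141 to 189) and 205 CPM (187 to 224), classes that overlapped in the control library. Müller glia-like cells came next, with 45.9 CPM in the knockout and 32.2 CPM (27.6 to 37.4) in the control library, and 30.1% and 18.8% of cells with a UMI. That was 73.7-fold the level of bipolar-like cells in the knockout and 26.7-fold in the control library. Endothelial-like cells were lower than Müller glia-like cells, at 6.58 CPM (3.59 to 11.0) and 9.89 CPM (5.86 to 15.6), the reverse of their order for Tlr4. Thinned to 1000 UMIs, 4.93% of knockout and 3.28% of control Müller glia-like cells still had a Tlr2 UMI, against at most 0.113% and 0.573% in a neuronal class. Per 100 calprotectin UMIs, Müller glia-like cells held 58.5 Tlr2 UMIs in the knockout and 12.3 in the control library, while the intervals of neutrophil-like cells were 0.146 to 0.183 and 0.181 to 0.221.

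Within the Müller glia-like class, Tlr2 differed between subclusters. In subcluster 0 it was 45.4 CPM in the knockout and 47.0 CPM in the control library, a ratio of 0.967 (0.714 to 1.33), and in subcluster 1 it was 46.8 and 50.6 CPM, a ratio of 0.924 (0.723 to 1.19). In the shallow subcluster 2 it was 55.7 CPM in the knockout and 17.5 CPM in the control library, a ratio of 3.18 (1.07 to 12.7) on 21 and 4 UMIs. Subcluster 4, with 1 knockout and 81 control cells and the glial genes Hes5 and Car14 among its leading genes, had 2.34 CPM in the control library. Subcluster 3, with 11 knockout and 79 control cells, had 8.44 CPM there. Lcn2, an acute-phase gene of stressed glia, stood at 15271 CPM in knockout and 21946 CPM in control cells of subcluster 0, and at 1004 CPM in control subcluster 4. Different subclusters held most of the class in each library, so a ratio over the whole class also carries that difference in makeup.

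**Figure D3:**
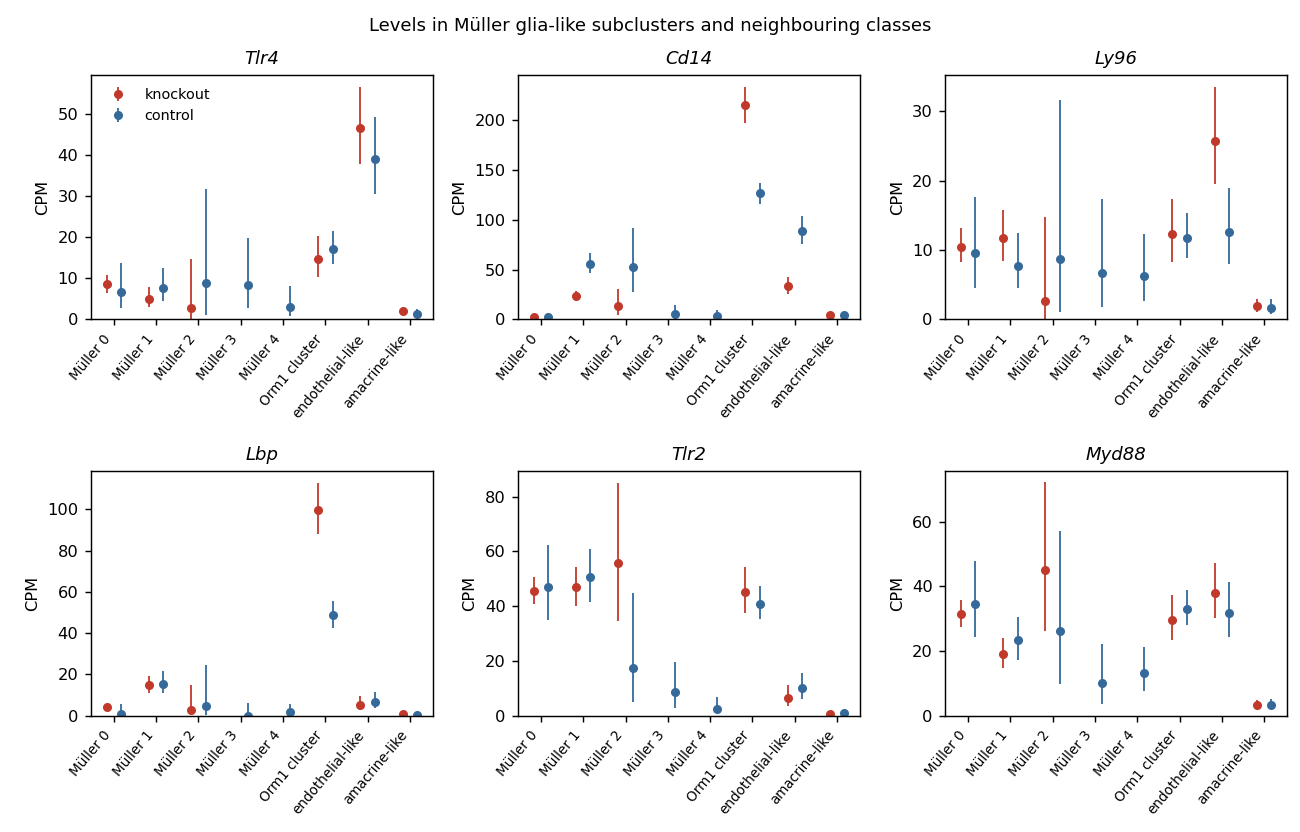
Levels of 6 members (vertical axes, CPM) in Müller glia-like subclusters, the unnamed Orm1 cluster, endothelial-like and amacrine-like cells, knockout left of control, with exact Poisson 95% intervals; units under 20 cells in a library are not drawn. Lbp and Cd14 are highest in the Orm1 cluster, and Tlr2 is low in control subclusters 3 and 4, at 8.44 and 2.34 CPM.

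The cells richest in Lbp belonged to no named class. A cluster of 46 knockout and 59 control cells, with Chil1, Orm1, Grem1 and Ifitm1 among its leading genes and called the Orm1 cluster here, held 66.1% of all Lbp UMIs of the knockout library and 72.8% of those of the control library. Its Lbp level was 99.8 CPM (87.9 to 113) in the knockout and 48.9 CPM (42.6 to 55.8) in the control library, 13.5-fold and 6.86-fold (4.85 to 9.96) that of Müller glia-like cells, which had 7.38 and 7.12 CPM. Endothelial-like cells overlapped Müller glia-like cells at 5.17 CPM (2.58 to 9.24) and 6.59 CPM (3.41 to 11.5). Orm1, like Lbp, encodes an acute-phase protein.

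The Orm1 cluster carried some glial genes and nearly lacked others. The water channel gene Aqp4 stood at 129 and 180.4 CPM, knockout before control, against 229 and 425 CPM in Müller glia-like cells. The glutamine synthetase gene Glul stood at 874 and 1284 CPM, against 841 and 1786 CPM. The potassium channel gene Kcnj10 stood at 1.19 and 0 CPM, against 54.5 and 82.1 CPM in Müller glia-like cells, and Rlbp1, the retinaldehyde-binding protein gene of Müller glia, at 10.7 and 9.55 CPM, against 173 and 391 CPM. Pax2, a marker of retinal astrocytes, had no UMI in it in either library. Others on the astrocyte list went both ways. Igfbp5 stood at 119.7 and 199 CPM, against 13.5 and 9.74 CPM in Müller glia-like cells. Cxcl14 stood at 34.1 and 18.9 CPM, against 7.83 and 11.4 CPM. Gfap (7.13 and 6.44 against 226 and 228 CPM), S100b and Aldh1l1 were lower than in Müller glia-like cells. Outside that list, Cldn2 stood at 78.8 and 121 CPM, against 0.270 and 0.562 CPM. No cell type is given to the Orm1 cluster here.

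Cd14 was also high in the Orm1 cluster, at 215 CPM (197 to 234) in the knockout and 127 CPM (116 to 137) in the control library, with a UMI in 38 of 46 knockout and 47 of 59 control cells. It held 144 (126 to 165) Cd14 UMIs per 100 calprotectin UMIs in the knockout and 144 (126 to 164) in the control library, far above the neutrophil ratio. The 12 monocyte and macrophage markers summed to 45.6 CPM in the knockout and 32.4 CPM in the control library there, with Adgre1, Ms4a7, C1qb and C1qc at 0 in both. Tlr4 stood at 14.7 CPM (10.3 to 20.2) and 17.1 CPM (13.5 to 21.4), 1.99-fold (1.31 to 2.96) and 2.61-fold (1.73 to 4.01) the level of Müller glia-like cells. Tlr2, at 45.2 and 40.9 CPM, Ly96, at 12.3 and 11.8 CPM, and Myd88, at 29.7 and 33.1 CPM, were also present, and Ticam2 had no UMI. Median depths were 26688 UMIs per knockout and 57763 UMIs per control cell.

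Myd88, the adaptor gene of the NF-κB branch, was present in myeloid, endothelial-like and glial classes. It stood at 77.4 CPM (63.0 to 94.0) in knockout and 84.4 CPM (71.7 to 98.7) in control neutrophil-like cells, and at 74.4 CPM (59.5 to 91.9) and 104 CPM (91.2 to 118) in monocyte and macrophage-like cells. Endothelial-like cells held 30.2 to 47.3 CPM (81 UMIs) in the knockout and 31.9 CPM (24.2 to 41.2) in the control library, and Müller glia-like cells 27.8 CPM (24.8 to 31.1) and 21.7 CPM (18.0 to 26.1). Within each of these pairs of classes the intervals overlapped, and between the pairs they did not. The direct ratio of endothelial-like to Müller glia-like cells was 1.37 (1.06 to 1.75) in the knockout and 1.47 (1.05 to 2.03) in the control library. That of neutrophil-like to monocyte and macrophage-like cells was 1.04 (0.772 to 1.40) and 0.811 (0.659 to 0.997). Neurons ranged from 0 to 11.6 CPM in the knockout and from 2.10 to 7.09 CPM in the control library. Müller glia-like cells were above all neuronal classes except knockout rod-like cells, whose 6 UMIs gave an interval of 4.26 to 25.3 CPM.

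The adaptors of the interferon branch divided the myeloid classes. Ticam1 had 1 UMI in knockout and 4 UMIs in control neutrophil-like cells. In monocyte and macrophage-like cells it stood at 9.52 and 9.18 CPM, 12.4-fold (1.81 to 535) and 4.27-fold (1.44 to 17.1) the neutrophil-like level. Endothelial-like cells held 9.86 CPM (6.11 to 15.1) and 11.5 CPM (7.14 to 17.6), and Müller glia-like cells 5.85 CPM (4.51 to 7.45) and 5.25 CPM (3.49 to 7.58), in the knockout and the control library. Ticam2 was found mostly in monocyte and macrophage-like cells, which had 16 of the 21 UMIs of the knockout library and 34 of the 44 of the control library. Müller glia-like cells had 1 Ticam2 UMI in each library, and neutrophil-like cells 1 in the knockout and 5 in the control library.

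Irak3, the inhibitor, was a myeloid and endothelial gene. It stood at 909 CPM (858 to 962) in knockout and 925 CPM (882 to 969.5) in control neutrophil-like cells, at 309.9 CPM (279 to 344) and 278 CPM (256 to 300.0) in monocyte and macrophage-like cells and at 68.6 CPM (57.9 to 80.6) and 60.4 CPM (49.7 to 72.8) in endothelial-like cells. Müller glia-like cells, with 9.36 CPM (7.64 to 11.3) and 8.62 CPM (6.31 to 11.5), overlapped rod-like cells at 11.6 CPM (4.26 to 25.3) and 11.1 CPM (7.86 to 15.1), so their level did not stand clear of every neuronal class. It was 12.5-fold (5.57 to 34.9) in the knockout and 5.35-fold (2.50 to 13.1) in the control library relative to bipolar-like cells. Irak4, the kinase that starts the MyD88 branch, was highest in monocyte and macrophage-like cells, at 56.3 CPM (43.4 to 71.7) and 42.8 CPM (34.8 to 52.2). Neutrophil-like cells had 23.0 CPM (15.5 to 32.8) and 30.1 CPM (22.7 to 39.1) of it, and endothelial-like cells 18.8 and 23.6 CPM. In the control library the neutrophil-like interval overlapped that of monocyte and macrophage-like cells. The direct ratio of monocyte and macrophage-like to neutrophil-like cells was 1.42 (1.01 to 2.01) there. In Müller glia-like cells Irak4 was 5.58 and 4.87 CPM, no clearer than in rod-like cells at 7.74 and 6.52 CPM.

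**Figure D4:**
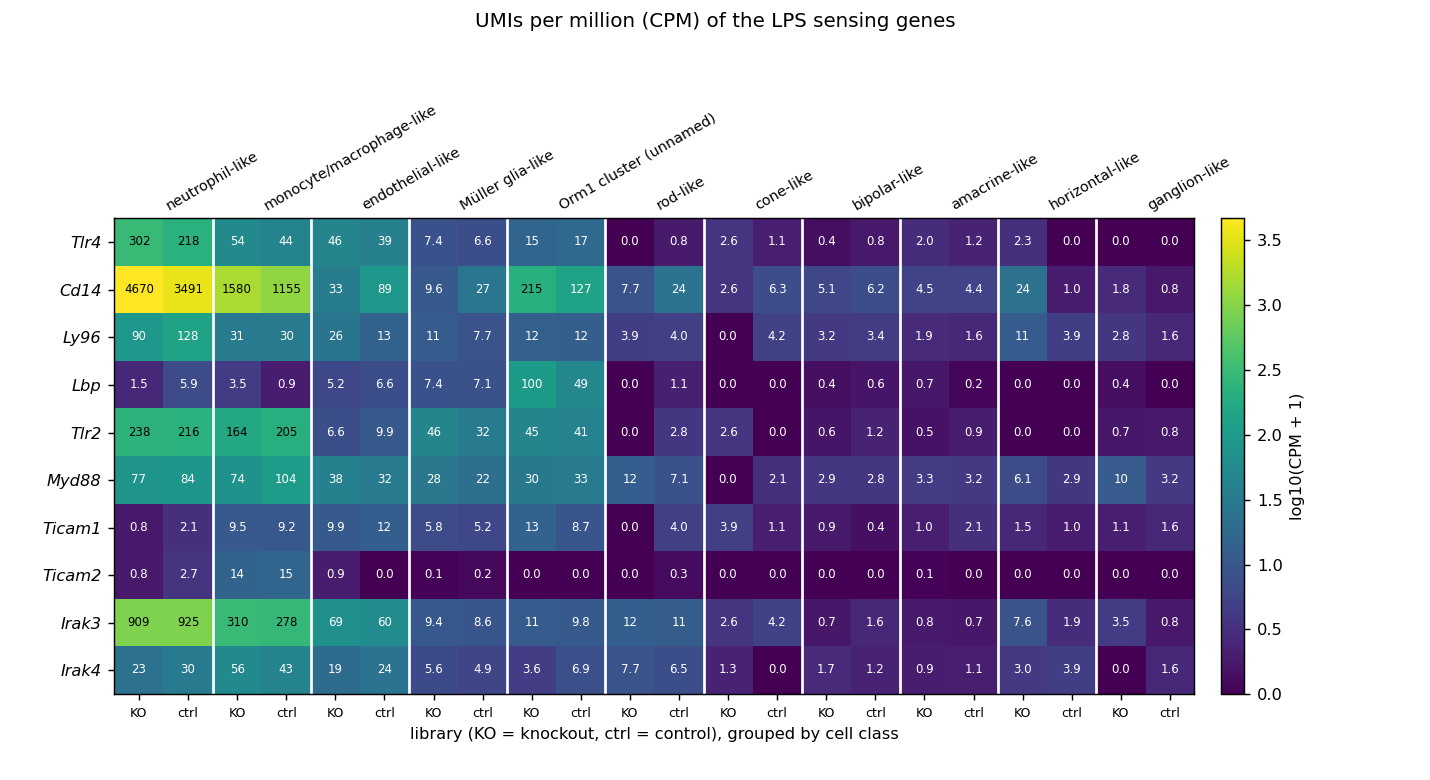
Level of each member (rows) in each cell class and library (columns, knockout left of control within a class), printed as CPM and coloured by log10(CPM + 1). Tlr4, Cd14, Ly96, Tlr2 and Irak3 are highest in neutrophil-like cells in both libraries, Ticam2 in monocyte and macrophage-like cells at 13.8 CPM in the knockout and 14.9 CPM in the control library, and Lbp in the Orm1 cluster.

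The parts of the receptor were often detected in the same cell in few classes. Tlr4 and Ly96 were found together in 32.9% of knockout and 33.8% of control neutrophil-like cells, and all 54 knockout and 76 control cells with this pair also held Cd14. All of Tlr4, Ly96 and Cd14 were found in 29.4% of knockout and 25.5% of control monocyte and macrophage-like cells. Endothelial-like cells held Tlr4 with Ly96 in 24 of 50 knockout and 14 of 55 control cells, but with Cd14 as well in 7 and 2. In the Orm1 cluster the 3 genes were found together in 11 of 46 knockout and 21 of 59 control cells. Of the Müller glia-like cells, 9 of 562 knockout and 5 of 361 control cells held Tlr4 with Ly96, and 2 in each library held all 3. These shares rise with depth, and neutrophil-like cells were the shallowest of these classes at medians of 7304 UMIs in the knockout and 7416 UMIs in the control library. They also depend on how often each gene was detected alone. Independent detection would give all 3 genes in 31.6% of knockout and 29.9% of control neutrophil-like cells. In the Orm1 cluster it would give 10.6% and 20.5%, against 23.9% and 35.6% seen. For Tlr4 with Ly96 in Müller glia-like cells it would give 1.58% and 0.638%, against 1.60% and 1.39% seen. Depth also varied between the cells of a class, and its part in these shares was not tested. A cell without a UMI may still hold the RNA.

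The libraries were compared class by class. A member counted as measured in a class with at least 30 UMIs over both libraries and as higher or lower when past 1.5-fold. In Müller glia-like cells 0 of 9 measured members were higher and 1 was lower in the knockout, against 5.44% higher and 20.5% lower of all 13061 genes measured there. Cd14 was that gene, with a ratio of knockout to control of 0.357 (0.275 to 0.461). Its call was lost without the 5 cells with the most Cd14 in each library (0.876), without the cells of highest doublet score (0.933), and when members were allowed among the clustering genes (0.859). Inside subclusters 0 and 1 the Cd14 ratios were 1.40 (0.338 to 12.4) and 0.416 (0.311 to 0.554). In subcluster 2 the Cd14 ratio was 0.252 (0.0696 to 0.769), on 5 knockout and 12 control UMIs. Tlr4 had a ratio of 1.12 (0.748 to 1.72), Ly96 1.39 (0.969 to 2.04), Tlr2 1.42 (1.20 to 1.70) and Myd88 1.28 (1.03 to 1.60). With cells called one by one from their markers, the Tlr4 ratio was 0.679, below 1. Inside subclusters 0 and 1 the Myd88 ratios were 0.910 (0.638 to 1.33) and 0.814 (0.558 to 1.19), and in subclusters 2 and 3 they were 1.72 (0.645 to 5.31) and 2.48 (0.245 to 13.9), each with an interval that held 1. The median member had a log2 ratio of 0.17, against -0.18 for all genes measured. Scaling by TMM, which moves every ratio of the class up by 0.21 on the log2 scale, put Ly96 at 1.61 and Tlr2 at 1.64, past the line.

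**Figure D5:**
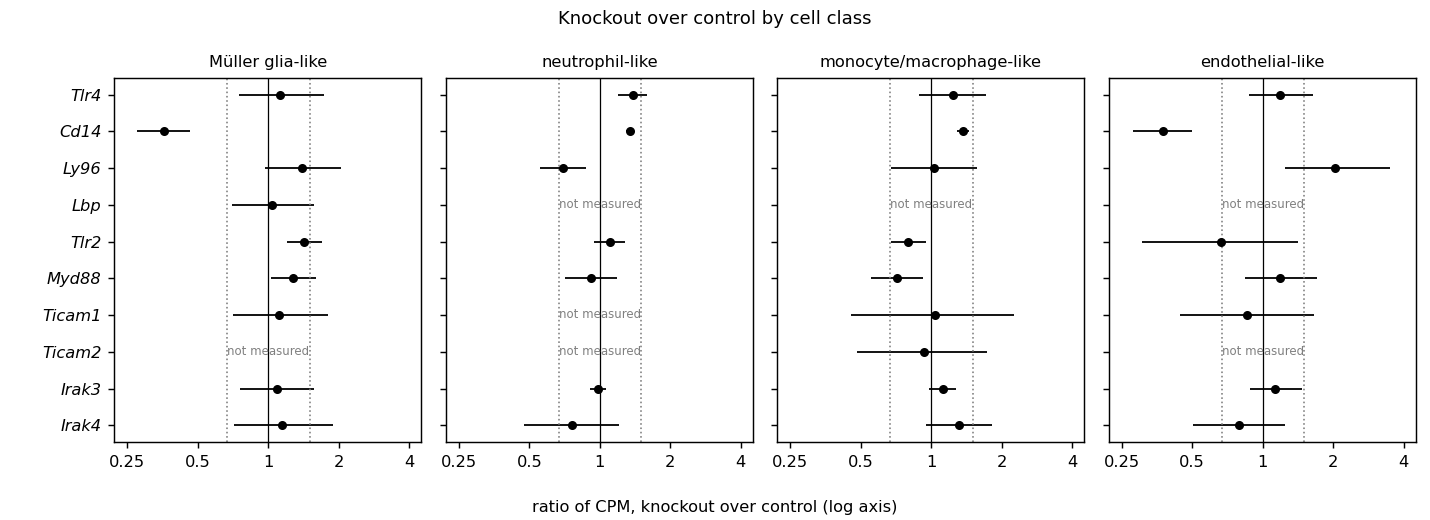
Ratio of CPM, knockout over control (horizontal axis, log scale), for each member in 4 cell classes, with exact 95% counting intervals; dotted lines mark 1.5-fold in each direction, and members under 30 UMIs are marked as not measured. Cd14 is the one member past a line in Müller glia-like cells, at 0.357, and no member is past a line in the neutrophil-like or the monocyte and macrophage-like class.

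In the myeloid classes no member passed 1.5-fold. Of 7 measured in neutrophil-like cells, 0 were higher and 0 lower in the knockout, against 4.80% higher and 27.4% lower of all genes. Of 9 measured in monocyte and macrophage-like cells, 0 were higher and 0 lower, against 5.65% and 12.3%. In neutrophil-like cells Tlr4 had a ratio of 1.38 (1.20 to 1.59), Cd14 1.34 (1.29 to 1.39), Ly96 0.698 (0.554 to 0.874) and Irak3 0.983 (0.912 to 1.06). TMM moved these up by 0.23 on the log2 scale and put Tlr4 at 1.62 and Cd14 at 1.57, past the line, and Irak3 above 1. Without a second neutrophil-like cluster, which held 5 knockout and 56 control cells, Ly96 passed the line at 0.644. In the whole class 10 neutrophil markers summed to 153871 CPM in the knockout and 113731 CPM in the control library. The 8 rod markers summed to 593 and 2543 CPM. Per 100 calprotectin UMIs, Tlr4 stood at 0.207 and 0.202, Cd14 at 3.21 and 3.23, Ly96 at 0.0616 and 0.119, and Irak3 at 0.624 and 0.857. The part of these differences in the member ratios was not tested. Monocyte and macrophage-like cells gave 1.37 (1.29 to 1.45) for Cd14, 0.798 (0.670 to 0.947) for Tlr2 and 0.715 (0.552 to 0.919) for Myd88. In that class the Müller glia markers summed to 528 CPM in the knockout and 2883 CPM in the control library. The 10 neutrophil markers summed to 5797 CPM in the knockout and 2148 CPM in the control library there. The part of either in these ratios was not tested, and neutrophil RNA was not subtracted in this class.

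Endothelial-like cells had 1 higher and 2 lower of 8 measured members, against 4.56% higher and 11.7% lower of all genes. Ly96 was higher, 2.04 (1.24 to 3.49), Cd14 lower, 0.375 (0.279 to 0.498), and Tlr2 lower, 0.665 (0.306 to 1.42). With neutrophil RNA subtracted in proportion to S100a8 and S100a9, the Cd14 ratio turned to 1.46, and the Ly96 ratio was 2.50. Without the endothelial-like cluster that carries that RNA, which held 22 knockout and 36 control cells, Ly96 was at 2.79, Irak3 at 1.61 and Myd88 at 1.57, and Cd14 and Tlr2 were no longer measured. Among endothelial-like cells the 5 with the most Cd14 held 91.5% of its UMIs in the knockout and 97.5% in the control library. Tlr4 had a ratio of 1.19 (0.870 to 1.64) and lay between 1.13 and 1.77 in 12 alternatives.

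In the Orm1 cluster 3 of 9 measured members were higher and 1 was lower in the knockout, against 5.37% and 12.2% of all genes measured there. Lbp was higher, 2.04 (1.70 to 2.46), and lay between 1.86 and 2.17 in 8 alternatives. Cd14 was higher at 1.70, but 1.35 without the 5 cells with the most Cd14 in each library and 1.35 with a stricter cell filter. Ticam1 was just past the line at 1.51 (0.920 to 2.46). Irak4 was lower at 0.518 (0.217 to 1.11), on 9 knockout and 31 control UMIs.

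Neurons gave few measured members. Of 3 in rod-like cells Myd88 was higher, 1.64 (0.550 to 4.09), and Cd14 lower, 0.325 (0.0866 to 0.864), against 12.4% higher and 22.8% lower of all genes. Horizontal cell-like neurons gave Cd14 alone, at 24.3 (4.05 to 989.5), from 31 UMIs in 5 knockout cells and 1 control UMI, against 7.77% of genes higher and 5.50% lower. Ganglion cell-like neurons gave Myd88 alone, at 3.23 (1.13 to 12.6) on 29 knockout and 4 control UMIs, against 10.4% higher and 6.63% lower. Of 3 members measured in bipolar-like cells 0 passed the line, against 5.31% higher and 5.71% lower, and of 2 in amacrine-like cells 0, against 5.85% and 4.76%. Cone-like cells gave none, with 5.54% of genes higher and 8.41% lower there.

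Other genes of the pathway were followed in Müller glia-like cells, from lists chosen by function; the counts below stand beside 5.44% higher and 20.5% lower of all genes measured in that class. Among 10 other toll-like receptors only Tlr3, the sensor of double-stranded RNA, was measured, at 26.5 CPM in the knockout and 28.1 CPM in the control library, a ratio of 0.944 (0.773 to 1.16). Of 19 measured adaptors and kinases below TLR4, 1 was higher, the ubiquitin ligase gene Traf6 at 1.57 (1.23 to 2.02). The 4 that were lower were the kinase gene Irak2 at 0.632 (0.572 to 0.698) and, named after their values were seen, Ikbkg, Ripk1 and Ikbke. Ube2n, which encodes the ubiquitin-conjugating partner of TRAF6, was at 1.02 (0.938 to 1.12). The list's median log2 ratio was -0.28, beside -0.18 for all genes.

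Of 11 measured brakes on the pathway, 1 was higher, the cytokine signalling suppressor Socs1 at 2.06 (1.81 to 2.35). The 2 that were lower were Peli3, of the Pellino family, at 0.514 (0.297 to 0.893), and the kinase phosphatase gene Dusp1 at 0.602 (0.577 to 0.629), while Zfp36, whose product speeds the decay of cytokine RNAs, was at 0.766 (0.740 to 0.792). Of 9 measured genes on the list for LPS binding, uptake and breakdown, 0 were higher and 1 was lower, Unc93b1 at 0.649 (0.416 to 1.02). This LPS-handling list was wide. It took in genes of toll-like receptor trafficking, Unc93b1 among them, and shared Hsp90b1 and Cnpy3 with the export list. The LPS-handling list also held Gsdmd, the pore-former of pyroptosis, at 1.44 (0.710 to 3.16), and Hmgb1, a nuclear protein gene, at 1.29 (1.25 to 1.34). None of 7 genes of TLR4 export and trafficking passed the line, with Hsp90b1, its chaperone, at 0.863 (0.818 to 0.911) and the hyaluronan receptor gene Cd44 at 1.22 (1.18 to 1.27). The median log2 ratio was 0.02 over the brakes, -0.14 over the LPS-handling list and 0.03 over the export list; TMM scaling, with its shift given above, turned the second of these to 0.06.

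Of 11 measured genes that LPS is known to induce, 2 were higher and 2 lower in knockout Müller glia-like cells, against 5.44% and 20.5% of all genes, with a median log2 ratio of 0.12. Cxcl2, a neutrophil chemokine gene, had 578 CPM in the knockout and 268 CPM in the control library, a ratio of 2.16 (2.04 to 2.28), and the acute-phase gene Saa3, named after its values were seen, 1.82 (1.68 to 1.97). Il1b, which neutrophils also carry, had 6.66 and 35.2 CPM, a ratio of 0.189 (0.142 to 0.249), and the other lower gene was Il6. Lcn2, at 23877 and 25059.9 CPM, and the monocyte chemokine gene Ccl2, at 1624 and 1499 CPM, lay between the lines. The same list had other members past the line elsewhere, named here after their values were seen. In neutrophil-like cells 1 of 12 was higher (Cxcl1) and 4 lower (Saa3, Il6, Cxcl10 and Icam1), against 4.80% and 27.4% of all genes. In monocyte and macrophage-like cells 0 of 12 were higher and 4 lower (Cxcl1, Il6, Tnf and Ifit1), against 5.65% and 12.3%. Endothelial-like cells had 3 of 12 higher (Saa3, Il6 and Tnf) and 1 lower (Il1b), against 4.56% and 11.7%.

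Over the 20 sums of class by library, the genes with the levels most like those of Tlr4 were Upp1 (0.971), Itprip (0.970) and Mcl1 (0.969). The likeness, in parentheses, is Pearson's r of log2(CPM + 1), and the points share libraries, depth and free RNA. For Cd14 they were Acod1 (0.986), Ptafr (0.985) and Cxcr4 (0.982), and for Ly96 Cap1, Neurl3 (0.933) and Ccrl2 (0.932). Tlr2 was most like Aldh3b1 (0.974), Cd44 (0.969) and Rnf149 (0.968), and Irak3 most like Nadk (0.985), Slfn2 (0.979) and Adgre5 (0.975).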

How the data were processed

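The libraries were 10x Genomics 3′ libraries of papain-dissociated pooled retinas, per the labels' protocols. The deposited matrices hold raw UMI counts per gene and barcode. Per the file headers the authors used Cell Ranger 6.0.0; the submitters' processing notes name mm10 and Seurat 5.2.1, and the annotation release is not given in the sources used here. A barcode was kept as a cell below 25% mitochondrial UMIs and from 500 genes up, which left 4662 of 5229 knockout and 8274 of 8690 control barcodes, from 50676223 and 43669961 UMIs. Libraries were merged and clustered in Seurat 5.3.0 (R 4.3.3; 2000 variable genes without Cd14, Lbp, Tlr2 and Irak3, which would have been among them; 11 components; resolution 1). Cells outside the neuronal clusters were clustered again, and Müller glia-like cells once more at resolution 0.4. Clusters were named from 21 marker lists by a score of at least 3 (mean log2 excess, 5 CPM added) with a lead of at least 1 over the next list. That minimum was set after seeing the data and leaves the Orm1 cluster unnamed. Names are rebuilt, so a difference from the study may come from them.

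For each class of a library, CPM are its summed UMIs of a gene over its summed UMIs of all genes. Classes needed 20 cells in each library. Scrublet in scanpy 1.11.5 called 0 doublets in both libraries and so did not work, and none were removed; an alternative left out the 174 knockout and 548 control cells of highest score. TMM factors came from edgeR 4.0.16. Genes named were the members, the 3 genes most like each of 5 members, and the extremes of ratio and level in each pathway list; genes that describe clusters were named after their values were seen. Members and lists were chosen with earlier results of these data known. Only the ratios, their intervals and the 1.5-fold calls were tested on simulated data, drawn as Poisson counts for the Müller glia-like and neutrophil-like classes. Uneven counts between cells were not simulated. Clustering, naming, thinning, doublet scores and the subtraction of free RNA were not tested in this way.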

Additional observations from a re-analysis of the deposited data

Results flagged for a closer look

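For 4 members the ratio of knockout to control lay above 1 in a cell class and below 1 in another, each with a counting interval that left out 1. The classes given are those with the highest and the lowest such ratio, so each fold is the largest found. For Cd14 the ratio was 24.3 in horizontal cell-like and 0.325 in rod-like cells, ratios that differ 74.8-fold. The first rests on 31 knockout UMIs from 5 cells and 1 control UMI. The second rests on 4 knockout and 84 control UMIs. For Ly96 it was 2.04 in endothelial-like and 0.698 in neutrophil-like cells, which differ 2.92-fold. For Tlr2 it was 1.42 in Müller glia-like and 0.798 in monocyte and macrophage-like cells, which differ 1.78-fold, while in Müller glia-like subclusters 0, 1 and 2 it was 0.967, 0.924 and 3.18 (1.07 to 12.7). For Myd88 it was 3.23 in ganglion cell-like cells, on 29 knockout and 4 control UMIs, and 0.715 in monocyte and macrophage-like cells, which differ 4.52-fold. With 1 library per group these differences between classes were not tested.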

How the results depend on the processing

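No paired analysis was possible because each group is 1 library. Of the member ratios under alternatives, 394 lay within the counting interval of the value reported and 29 outside it. The 394 include the ratios under a minimum of 100 UMIs, which repeat the value reported by construction and so check nothing. Among ratios past 1.5-fold, 1 turned to the other side of 1, Cd14 in endothelial-like cells, 1.46 with neutrophil RNA taken away; several ratios nearer 1 also crossed it, such as Lbp in Müller glia-like cells (0.535 to 2.27). Counts of members past 1.5-fold moved more. In Müller glia-like cells 2 were higher under TMM, with the mean of per-cell CPM or with free RNA taken away, 3 without the 5 top cells per gene, and 1 without the highest doublet scores, with members among the variable genes or after thinning (1 measured); under the last 5 of these 0 were lower, and 2 were lower with a marker call per cell. In neutrophil-like cells 2 were higher under TMM, and 1 was lower after thinning, without the 5 top cells, with free RNA taken away or without the second neutrophil cluster. In monocyte and macrophage-like cells 2 were higher with the per-cell mean and 1 after thinning or without the 5 top cells, and 1 was lower without the 5 top cells or with a marker call per cell. In endothelial-like cells 2 were higher with neutrophil RNA taken away, 3 without the cluster that carries it and 0 of 4 at 100 UMIs; 1 was lower under TMM, without the highest doublet scores, with a marker call per cell, with free RNA taken away or at 100 UMIs, and 0 without the 5 top cells, with neutrophil RNA taken away or without that cluster. In the Orm1 cluster 1 was higher with the stricter filter, and 0 were lower without the 5 top cells or at 100 UMIs. The cause was not tested. Leaving out those 2 clusters, and counting the Orm1 cluster as Müller glia-like (Cd14 ratio 0.655), were chosen after seeing the data. Resolution 0.5, the marker call per cell and members among the variable genes were not run for the Orm1 cluster.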
